A study of Mus musculus with 11 samples.

Results

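The genes described here encode proteins that work with the ribosome, namely initiation factors, elongation factors and the cytosolic and mitochondrial tRNA synthetases, and their level was compared between ventricles of mice that overproduce angiotensin II in the heart and those of their littermates. They were chosen by symbol. Every gene was taken whose platform symbol starts with Eif or Eef and a digit, or consists of the amino acid letters of a synthetase followed by ars, with or without a final digit. This gave 76 of the 8146 genes that have spots of their own on the array, and all 76 passed the filter on missing values. Of these, 34 genes had several spots and 42 had 1 spot, in all 154 spots.

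The samples came from male mice of the TG1306/1R line on the C57/BL6 strain, about 60 weeks old, with no treatment. In this line a transgene for angiotensinogen, the precursor of angiotensin II, is driven by a promoter of cardiac muscle cells. Dil mice (n = 4) were heterozygous carriers with a dilated heart, Hyp mice (n = 4) were heterozygous carriers with concentric hypertrophy, and WT mice (n = 4) were littermates without the transgene. Carriers had been sorted into Dil and Hyp by chamber shape, heart weight and hypertrophic marker genes, so these 2 groups differ by outcome and not by genotype. Total RNA of both ventricles and the septum of single mice was labelled with Cy3 or Cy5, and each of 11 cDNA arrays compared 2 mice with the same number, which are called a set here. Of the 11 arrays, 3 compared Dil with WT (sets 1, 3 and 4), 4 compared Hyp with WT and 4 compared Dil with Hyp. In set 2 the Dil and WT mice were compared only through the Hyp mouse.

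Translation starts when eIF2 brings the initiator tRNA to the small ribosomal subunit, which eIF3, eIF1 and eIF1A prepare, while the eIF4 proteins bind the cap of the mRNA and unwind its leader. Elongation factors then deliver charged tRNAs and move the ribosome along, and each tRNA is charged with its amino acid by its own synthetase. Growth of heart muscle is known to go with more protein synthesis, which is controlled in part through the eIF4E-binding proteins downstream of mTOR, through eIF2 and its exchange factor eIF2B, and through phosphorylation of eEF2. Several synthetase genes are known targets of ATF4, the transcription factor of the amino acid response.

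The values were the deposited log ratios of the 2 dyes, taken as log2, and a log2 change of 1 is a doubling. The direction of the ratio is not stated in the sources used here and is only likely. It was taken as Cy5 over Cy3 because the heart stress gene Nppb and the angiotensinogen gene Agt were then higher in carriers (Dil minus WT 2.53 and 2.15, Hyp minus WT 1.02 and 2.09). On the direct arrays of Hyp with WT, Nppb was higher in the carrier in all 4 sets. Agt had no value in set 1 and read 1.83, -0.24 and 3.60 in sets 2, 3 and 4, so set 3 went the other way. The opposite direction would turn every sign below. On the array that compared Hyp1 with WT1 the deposited rows were displaced and were realigned, and 7 of the 76 genes (Cars, Eif3c, Eif3e, Eif3l, Eif4ebp3, Hars2 and Vars2) had no value on it. All ratios of the arrays of Dil3 with WT3 and Dil4 with WT4 were spread more widely than those of the others (scaled median absolute deviation 0.335 and 0.354, against 0.115 to 0.250). Ratios give no level, so the genes cannot be ranked by abundance. Of 9 markers of cardiac muscle cells only Ryr2 was measured, so the tissue could not be checked against its defining markers. In whole ventricles, fewer cells of a type and less RNA per cell cannot be told apart.

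Promoter stretches are shown for synthetase genes that share a motif and for 2 of the called genes. They come from RefSeq (build GRCm38.p6), which gave a window from 250 bases before to 50 bases after the start for 57 of the 76 genes. Both strands were searched for TTGCATCA, the core of the element to which ATF4 binds, and for CACGTG, the E-box to which Myc and related factors bind. These motifs do not overlap with each other in the stretches below. TTGCATCA was present in 4 of 57 windows (7.02%), against 1.03% of all mouse genes with a window and 0.771% of the genes on this array. The 4 genes are the synthetases Aars, Yars, Iars and Tars, and their stretches are printed with this motif, or its reverse complement in Yars, in capitals.
Aars, chr8:111033694-111033773, plus strand: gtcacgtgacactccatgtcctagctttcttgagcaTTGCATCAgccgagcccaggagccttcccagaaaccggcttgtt
Yars, chr4:129189870-129189932, plus strand: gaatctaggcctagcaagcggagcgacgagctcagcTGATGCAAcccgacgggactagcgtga
Iars, chr13:49682101-49682159, plus strand: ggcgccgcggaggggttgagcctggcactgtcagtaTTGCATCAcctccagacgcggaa
Tars, chr15:11399630-11399709, minus strand: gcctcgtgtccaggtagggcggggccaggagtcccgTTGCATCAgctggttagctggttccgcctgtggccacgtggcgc

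CACGTG was present in 15 of 57 windows (26.3%), against 8.09% of all genes and 12.3% of the genes on this array. Among them were Aars, Iars and Tars, and the initiation factor genes Eif3a and Eif4a1. The others were Ears2, Eef2, Eef2k, Eif4h and Eif5a, and also Eif1b, Eif3f, Eif3k, Eif4e and Eif5a2. Those from Eif1b to Eif5a2 in this list lay below 0 in Dil minus WT. The stretches of Eif3a and Eif4a1 are printed because they had the 2 largest called changes, with the E-box in capitals.
Eif3a, chr19:60790664-60790707, minus strand: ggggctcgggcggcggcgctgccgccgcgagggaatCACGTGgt
Eif4a1, chr11:69672571-69672648, minus strand: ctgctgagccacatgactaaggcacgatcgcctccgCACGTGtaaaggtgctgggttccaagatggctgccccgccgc
Neither motif was found in the window of Sars. A match is a run of letters and not a measured binding site.

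In dilated hearts 4 of the 76 genes rose against WT and 0 fell, at an adjusted p under 0.05 in limma. They were the initiation factors Eif4a1 and Eif3a and the synthetases Aars and Sars. This is 5.26% of the genes, where 2.15% of the 12097 features tested were called in either direction and 1.00% were called higher. At an unadjusted p under 0.05, 13 genes were higher and 4 were lower in Dil hearts, against 8.09% of all features higher and 8.15% lower. Of the 76 genes 51 lay above 0, where 51.1% of all features did, and 22 had the same sign in all 4 sets, where 23.0% of all features did. The median change was 0.06 over the 76 genes and 0.00 over all features. It was 0.02 without set 4 and 0.03 after scaling all arrays to equal spread, against 0.09 without set 1 and 0.10 on the direct arrays alone. The share with a stable sign was near the background. With the set number as a replicate block 0 of the 76 genes and 6 of all features were called, and 51 genes lay above 0.

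**Figure D1:**
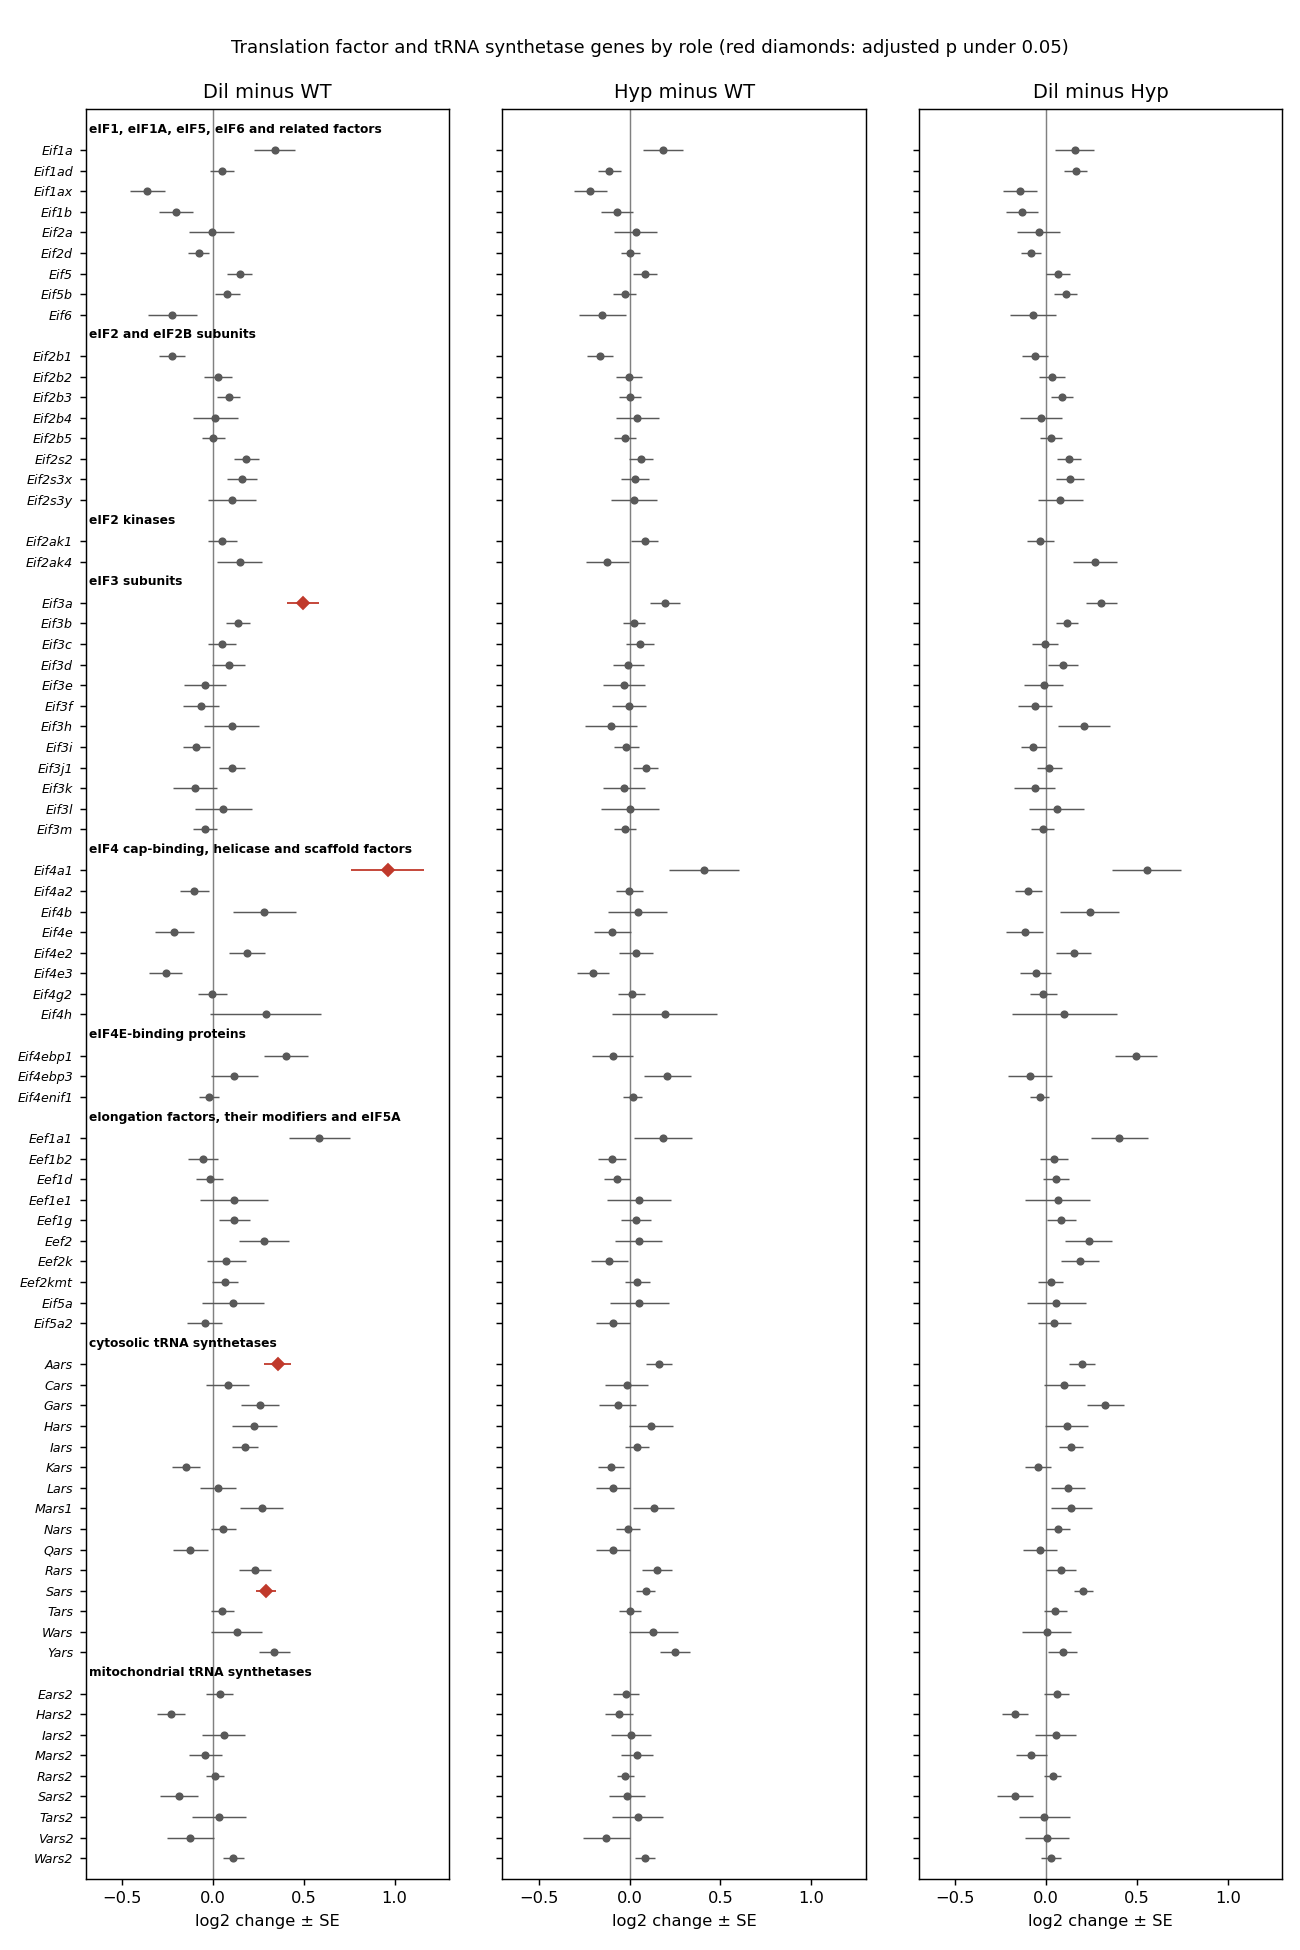
Fitted log2 changes of the 76 genes in the 3 comparisons (x axis, points with standard errors), with genes in rows grouped by role and red diamonds for an adjusted p under 0.05. The 4 diamonds, Eif3a, Eif4a1, Aars and Sars, all lie in the Dil minus WT panel, and Eif1ax is the lowest gene of that panel, at -0.36.

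Eif3a encodes the largest subunit of eIF3, on which the other subunits assemble. Its direct log2 ratios of Dil over WT were 0.51, 0.36 and 0.68 in sets 1, 3 and 4, all above 0. The fitted change was 0.50 ± 0.09 (SE, 1.41-fold, adjusted p = 0.0231, limma). All 9 spots of the gene lay above 0, between 0.23 and 0.74. The other 11 measured eIF3 subunits did not pass, and their changes ran from -0.10 in Eif3k to 0.14 in Eif3b. Over all 12 subunits 7 lay above 0, so the higher level of Eif3a was not accompanied by called changes of its partners.

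Eif4a1 encodes the RNA helicase that unwinds mRNA leaders. Its direct ratios of Dil over WT were 0.30, 0.30 and 1.84 in sets 1, 3 and 4, and the path through Hyp2 gave 1.41 in set 2. Every set was higher in Dil, but the direct array of set 4 stood far above the other two. The fitted change was 0.96 ± 0.20 (1.95-fold, adjusted p = 0.0406), with 4 of 4 spots between 0.83 and 1.16. The probes are cDNA clones, and near-identical copies and pseudogenes of Eif4a1 may share its signal. Its paralog Eif4a2, the form common in muscle and brain, was measured at -0.10 ± 0.08.

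The remaining eIF4 genes did not pass. The cap-binding genes Eif4e and Eif4e3 were measured at -0.21 ± 0.11 and -0.26 ± 0.09, and Eif4e2, which competes for the cap, at 0.19 ± 0.10. All 4 spots of Eif4e lay below 0. Eif4b and Eif4h, which assist the helicase, were measured at 0.28 ± 0.17 and 0.29 ± 0.31, and the 2 spots of Eif4h disagreed (-0.05 and 0.62). The scaffold-like Eif4g2 lay at -0.00 ± 0.08. Over the 8 eIF4 genes 4 lay above 0 and 4 below, so the helicase stood alone in this group.

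Aars, which charges tRNA with alanine, had direct ratios of Dil over WT of 0.16, 0.35 and 0.66 in sets 1, 3 and 4. The fitted change was 0.36 ± 0.07 (1.28-fold, adjusted p = 0.0396), from its only spot. Sars, which charges tRNA with serine, had direct ratios of 0.14, 0.14 and 0.55. Its fitted change was 0.29 ± 0.06 (1.22-fold, adjusted p = 0.0311), and its 4 spots ran from 0.10 to 0.57. For all 4 called genes the highest direct ratio was that of set 4, the only one of the 3 arrays with Dil in Cy3. The fitted dye terms (Cy5 over Cy3) were -0.22 for Eif4a1, -0.08 for Aars, -0.08 for Sars and -0.00 for Eif3a, and without a dye term Eif4a1 had an adjusted p of 0.0517 while the other 3 genes still passed. The part of dye and set in these values was not tested.

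**Figure D2:**
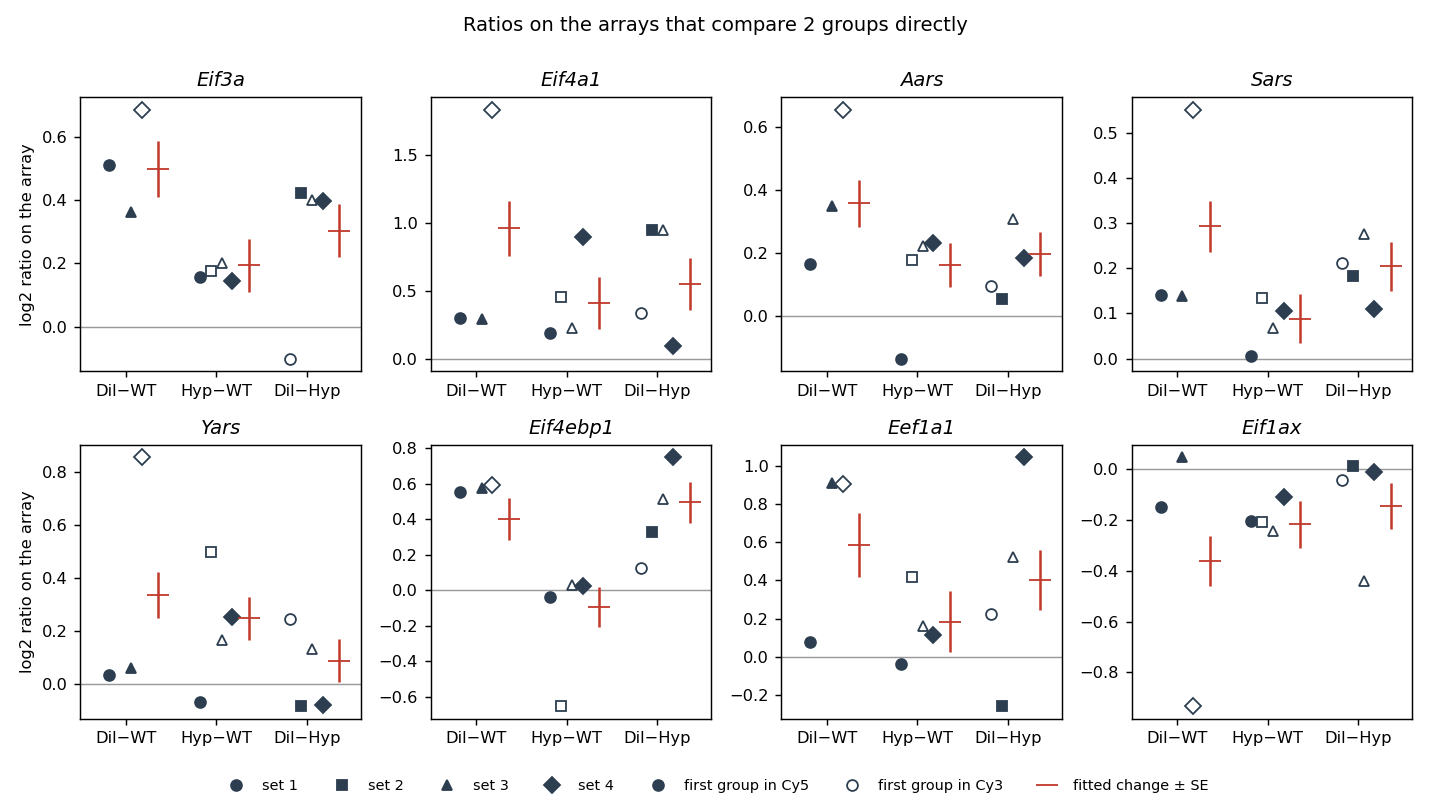
Log2 ratios on the arrays that compare 2 groups directly for 8 genes, by comparison (x axis), with marker shape for the set, filled markers where the first group was in Cy5 and red bars for the fitted change with its standard error. All direct Dil minus WT points of Eif3a, Eif4a1, Aars and Sars lie above 0, and set 4 is the highest in each.

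The calls rested on all mice together. With the set number as a replicate block the adjusted p was 0.0839 for Eif3a, 0.104 for Eif4a1, 0.149 for Sars and 0.172 for Aars, so none of the 4 passed, with fitted changes of 0.51, 1.02, 0.30 and 0.34. Leaving out set 3 or set 4 left 0 of the 76 genes called, without set 1 there were 2 (Eif3a and Aars), and without set 2 there was 1, Eif4ebp1. With the realigned array left out, Eif4a1 had an adjusted p of 0.0644 and the other 3 genes passed. Over all 16 alternatives the change stayed between 0.38 and 0.56 for Eif3a, 0.70 and 1.14 for Eif4a1, 0.26 and 0.46 for Aars, and 0.22 and 0.35 for Sars.

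**Figure D3:**
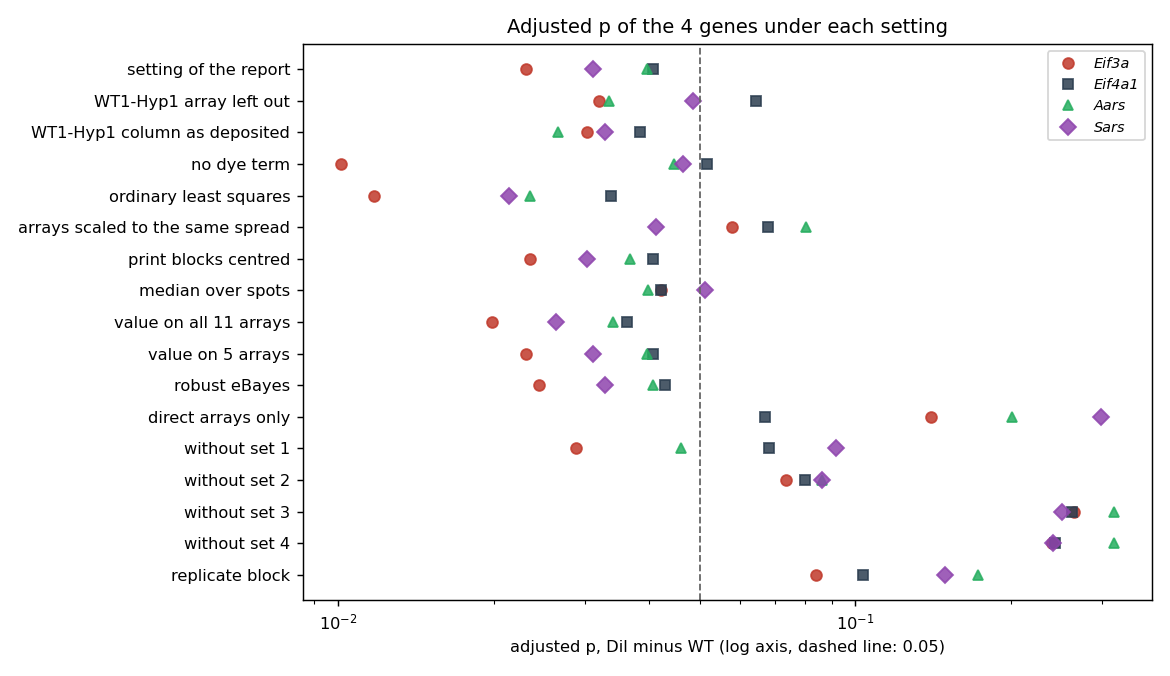
Adjusted p for Dil minus WT (x axis, log scale, dashed line at 0.05) of Eif3a, Eif4a1, Aars and Sars under the setting of the report and 16 alternatives (rows). The points lie right of the line for all 4 genes with the direct arrays only, without sets 2, 3 or 4 and with the replicate block.

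The cytosolic synthetases chosen by symbol lay higher as a group than the mitochondrial ones in dilated hearts. The synthetase genes Eprs, Farsa and Farsb fall outside the naming rule and are given with the pathway lists below. Of 15 cytosolic genes 13 lay above 0, with a median of 0.18, 2 called higher and 7 higher at an unadjusted p under 0.05. Over all features 51.1% lay above 0, 1.00% were called higher and 8.09% were higher at that p. Besides Aars and Sars these 7 were Yars (tyrosine, 0.34 ± 0.09), Mars1 (methionine, 0.27 ± 0.12), Gars (glycine, 0.26 ± 0.11), Rars (arginine, 0.23 ± 0.09) and Iars (isoleucine, 0.18 ± 0.07), whose adjusted p ran from 0.0735 to 0.293. Yars, next after the called genes, had direct ratios of 0.03, 0.06 and 0.86 in sets 1, 3 and 4. With the dye term removed it was above 0 in all 4 sets, at 0.20, 0.42, 0.14 and 0.63. Kars (lysine, -0.15 ± 0.08) and Qars (glutamine, -0.12 ± 0.10) lay below 0. Of the 4 genes with TTGCATCA in their window, Tars (threonine) was measured at 0.05 ± 0.06. The group median was above 0 in each set, at 0.08, 0.23, 0.14 and 0.32 in sets 1 to 4.

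Of the 9 mitochondrial synthetase genes 5 lay above 0, with a median of 0.01 and 0 called. Hars2 (histidine) had direct ratios of -0.21, -0.28 and -0.12 in sets 1, 3 and 4 and a fitted change of -0.23 ± 0.08 (adjusted p = 0.161). All 3 were lower in Dil, but the gene did not pass, and it had no value on the array of WT1 and Hyp1. Sars2, the mitochondrial counterpart of Sars, was measured at -0.19 ± 0.10. The difference between the 2 classes of synthetases was not tested.

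**Figure D4:**
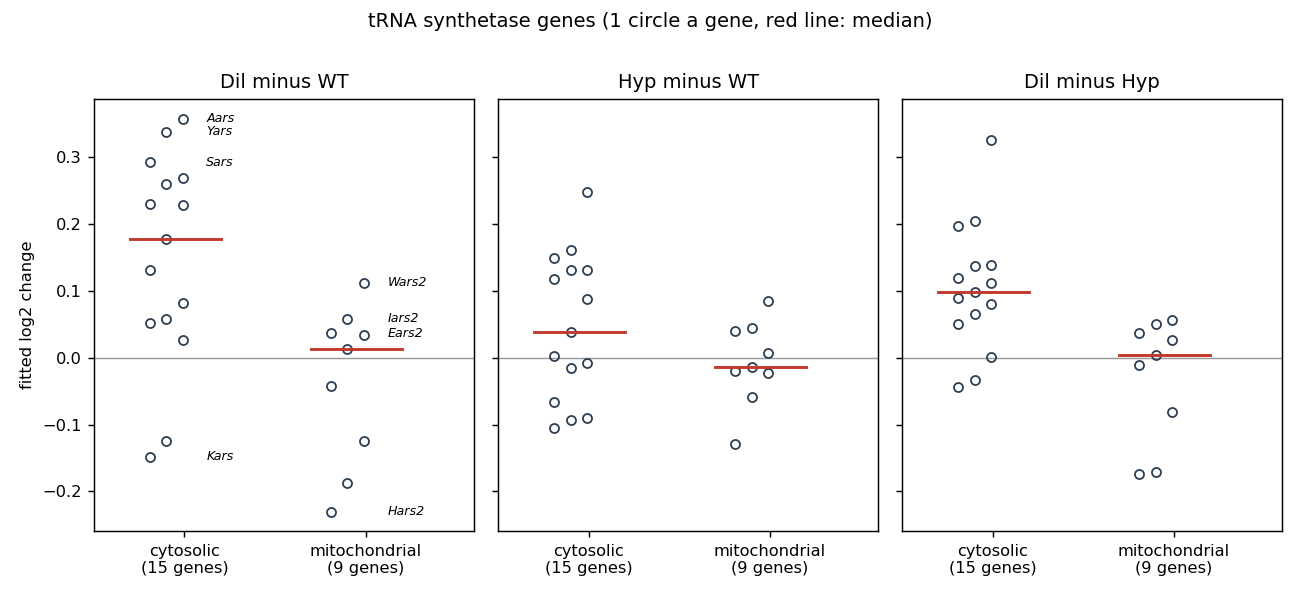
Fitted log2 changes of single tRNA synthetase genes (circles) with the median of each class (red line), for 15 cytosolic and 9 mitochondrial genes in the 3 comparisons. The cytosolic median is 0.18 in Dil minus WT, 0.04 in Hyp minus WT and 0.10 in Dil minus Hyp, and the mitochondrial medians are 0.01, -0.01 and 0.00.

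The eIF2 and eIF2B genes gave no call. Eif2b1, the regulatory alpha subunit of the exchange factor eIF2B, had direct ratios of Dil over WT of -0.32, -0.23 and -0.12 and a fitted change of -0.23 ± 0.07 (adjusted p = 0.152). It was the only one of the 8 genes below 0. Eif2s2, the beta subunit of eIF2, was measured at 0.18 ± 0.07, with 4 of 4 spots above 0. Eif2s3x and its Y-linked copy Eif2s3y, which cDNA probes may not tell apart, lay at 0.16 ± 0.08 and 0.10 ± 0.13. The eIF2 kinases Eif2ak1 (activated by lack of heme) and Eif2ak4 (activated by uncharged tRNA) lay at 0.05 ± 0.08 and 0.15 ± 0.13.

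Among the factors that prepare the small subunit, the 2 copies of eIF1A lay on opposite sides of 0, and neither passed. Eif1ax had direct ratios of Dil over WT of -0.15, 0.05 and -0.93 in sets 1, 3 and 4, and a fitted change of -0.36 ± 0.10 (adjusted p = 0.0866), the lowest of the 76 genes. With the dye term removed, all 4 sets lay below 0, at -0.31, -0.19, -0.19 and -0.66. Eif1a, a near copy, had direct ratios of 0.28, 0.53 and 0.07 and was fitted at 0.34 ± 0.11 (adjusted p = 0.160), with 4 of 4 spots above 0, whereas both spots of Eif1ax lay below 0. Eif1b, a paralog of eIF1, which guards start codon choice, had direct ratios of -0.04, -0.13 and -0.25 and was fitted at -0.20 ± 0.09 (adjusted p = 0.318). Eif6, which keeps the large subunit apart, was measured at -0.22 ± 0.13. Eif5 and Eif5b, which act when the subunits join, lay at 0.15 ± 0.07 and 0.08 ± 0.07, so the 9 genes had no common direction.

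The eIF4E-binding proteins block the cap-binding factor until mTOR phosphorylates them. Eif4ebp1 had direct ratios of Dil over WT of 0.55, 0.58 and 0.59 in sets 1, 3 and 4. These direct ratios lay close together but still hold the dye term, and the path through Hyp2 gave -0.32 in set 2. Sets 1 to 4 lay at 0.34, -0.32, 0.57 and 0.66 with the dye term removed. The fitted change was 0.40 ± 0.12 (adjusted p = 0.118, limma). Eif4ebp3 and Eif4enif1, a carrier of eIF4E, were measured at 0.12 ± 0.13 and -0.02 ± 0.05.

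The elongation group of 10 genes held elongation factors, their modifiers Eef2k and Eef2kmt, the related gene Eef1e1, and the eIF5A genes Eif5a and Eif5a2. Of these 10 genes 7 lay above 0 in Dil minus WT and 0 passed. Eef1a1, which delivers charged tRNA to the ribosome, had direct ratios of 0.08, 0.91 and 0.91 in sets 1, 3 and 4 and 0.16 in set 2 through Hyp2. The fitted change was 0.59 ± 0.17 (adjusted p = 0.105), and all 10 spots lay between 0.43 and 0.76. Sets 3 and 4 were high and sets 1 and 2 were lower, while the spots of the gene lay close together. The arrays of sets 3 and 4 that compare Dil with WT are also those with the wider spread over all spots. The other arrays of set 3 read 0.16 for Hyp over WT and -0.52 for Hyp over Dil. Those of set 4 read 0.11 for Hyp over WT and 1.05 for Dil over Hyp. The part of mouse and array in these values was not tested. Its near-identical pseudogenes may share the signal. Eef2, the translocation factor, was measured at 0.28 ± 0.14 with spots from -0.14 to 0.49, and Eef2k, the kinase that inhibits it, at 0.07 ± 0.11. The partners of eEF1A for nucleotide exchange, Eef1b2, Eef1d and Eef1g, lay at -0.06, -0.02 and 0.12.

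**Figure D5:**
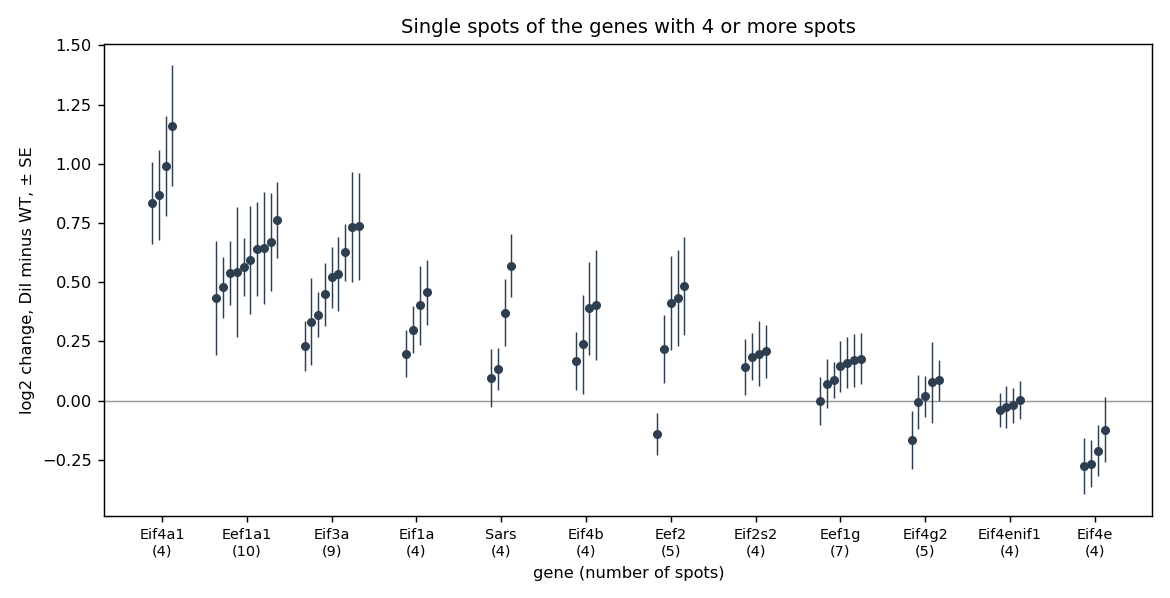
Log2 changes in Dil minus WT of single spots with standard errors (y axis), for the 12 genes with 4 or more spots (x axis, number of spots in brackets). All spots of Eif4a1, Eef1a1, Eif3a, Eif1a and Sars lie above 0 and all spots of Eif4e below 0, while the 5 spots of Eef2 run from -0.14 to 0.49.

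Of the 34 genes with several spots, 20 had all spots on 1 side of 0 in Dil minus WT. The share among all genes of the array with several spots was not computed, so 20 of 34 cannot be set against a background. Spots of a gene share the mice and the arrays, so their accord speaks to the probes and not to the animals.

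Hypertrophic hearts gave no call against WT. Of the 76 genes 0 passed, as did 0% of all 12097 features in limma, and 6 had an unadjusted p under 0.05 (3 higher and 3 lower), where 4.41% of all features did. Of the genes 41 lay above 0, against 50.5% of all features, and 10 had the same sign in all 4 sets, as did 1457 of the 12097 features. The median was 0.00 over the genes and 0.00 over all features, and that of the genes was 0.03 without set 1 and -0.03 without set 4.

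The smallest p-values of hypertrophic hearts belonged largely to genes named above for Dil, a comparison that shares the WT mice. Yars had direct ratios of Hyp over WT of -0.07, 0.50, 0.17 and 0.25 in sets 1 to 4 (fitted 0.25 ± 0.08, adjusted p = 0.976). Eif3a had 0.16, 0.17, 0.20 and 0.15 (0.19 ± 0.08, adjusted p = 0.999). The 4 arrays of Eif3a lay close together and all above 0. Aars had -0.14, 0.18, 0.22 and 0.23 (0.16 ± 0.07), and Eif4a1 had 0.19, 0.46, 0.22 and 0.90 (0.41 ± 0.19). Rars had 0.13, 0.26, 0.10 and 0.34 (0.15 ± 0.08). For Eif4a1 and Rars, too, every array was above 0, without passing the test. These ratios still hold the dye term. Once it was removed, Eif4a1 lay at 0.41, 0.24, -0.07 and 1.18 in sets 1 to 4. Rars and Eif3a stayed above 0 in all 4 sets.

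On the lower side, Eif1ax had direct ratios of Hyp over WT of -0.20, -0.21, -0.24 and -0.11 (-0.22 ± 0.09), all below 0. After removal of the dye term it lay at -0.43, -0.01, 0.00 and -0.38 in sets 1 to 4, so sets 2 and 3 were near 0. Eif4e3 had -0.05, -0.27, -0.01 and -0.60 (-0.20 ± 0.09), and Eif2b1 had -0.51, 0.13, 0.00 and -0.41 (-0.16 ± 0.07). The arrays of Eif2b1 thus lay on both sides of 0. Eif1ad, an eIF1A-like gene, had -0.14, -0.08, -0.03 and -0.19 (-0.11 ± 0.06), and Kars had 0.03, -0.12, -0.17 and -0.30 (-0.10 ± 0.07). For all genes named here in Hyp minus WT other than Yars the adjusted p was 0.999, Eif4ebp1 included. Eif4ebp1 lay at -0.09 ± 0.11 in Hyp hearts, with direct ratios of -0.04, -0.65, 0.03 and 0.03.

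Between dilated and hypertrophic hearts 0 of the 76 genes passed, where 0.165% of all features (20 of 12097) did. At an unadjusted p under 0.05, 9 genes were higher and 1 was lower in Dil hearts, against 5.27% of all features higher and 4.37% lower. Of the 76 genes 50 lay above 0, against 48.4% of all features. The sign was the same in all 4 sets for 24 genes, against 15.9% of all features. The median was 0.05, against -0.00 over all features. The Dil mice are the same as in the comparison with WT, so these counts are not a second, separate observation.

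Eif4ebp1 had the smallest p here. Its direct ratios of Dil over Hyp were 0.13, 0.33, 0.52 and 0.75 in sets 1 to 4, all above 0 (0.49 ± 0.11, adjusted p = 0.147). Sars had 0.21, 0.18, 0.28 and 0.11 (0.20 ± 0.05, adjusted p = 0.202), so each Dil mouse was higher than the Hyp mouse of its set. Eif3a had -0.10, 0.42, 0.40 and 0.40 (0.30 ± 0.08, adjusted p = 0.215). Eif3a thus was higher in 3 of 4 sets, with set 1 apart. Gars had -0.03, 0.55, 0.33 and 0.28 (0.33 ± 0.10, adjusted p = 0.282), and Eif4a1 had 0.34, 0.95, 0.95 and 0.10 (0.55 ± 0.19, adjusted p = 0.335). Eef1a1 had 0.22, -0.26, 0.52 and 1.05 (0.40 ± 0.16), with set 2 on the other side of 0. All 10 genes of the elongation group lay above 0, between 0.02 in Eef2kmt, which methylates eEF2, and 0.40 in Eef1a1. Only 1 of the 10 was higher at an unadjusted p under 0.05, where 5.27% of all features were.

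The lowest p-values below 0 in Dil minus Hyp included 2 mitochondrial synthetases. Hars2 had direct ratios of 0.05, -0.14, -0.24 and -0.50 (-0.17 ± 0.07, adjusted p = 0.471), and Sars2 had 0.00, 0.04, -0.32 and -0.52 (-0.17 ± 0.10, adjusted p = 0.653). Both mitochondrial synthetases were low in sets 3 and 4 and near 0 in set 1. Eif1ax had -0.04, 0.01, -0.44 and -0.01 (-0.14 ± 0.09), Eif2d, which can bring tRNA to the small subunit without eIF2, had -0.02, 0.03, -0.16 and -0.16 (-0.08 ± 0.05), and Eif1b had -0.06, -0.29, -0.16 and -0.22 (-0.13 ± 0.09). For these 3 genes the adjusted p was 0.717 to 0.745. Of the 3, only Eif1b was below 0 on every array.

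Other genes of protein synthesis were read from lists of pathway genes. Of 19 measured genes of the ATF4 branch of the stress response, 2 rose and 1 fell in Dil against WT, where 2.15% of all features were called and 1.00% were called higher. Ppp1r15a, a phosphatase subunit that reverses eIF2 phosphorylation, rose by 0.61 ± 0.09 (adjusted p = 0.00967), and Mthfd2, a mitochondrial one-carbon enzyme, rose by 0.55 ± 0.10 (adjusted p = 0.0237). Gpt2, a mitochondrial alanine aminotransferase, fell by 0.68 on the log2 scale (SE 0.13, adjusted p = 0.0311). The median of the list was 0.15 and 13 of 19 genes lay above 0. No gene of the other lists passed in Dil minus WT. These were 20 mTOR pathway genes (median 0.01), 13 termination and poly(A)-binding factors (0.10) and 19 genes of tRNA modification and ribosome biogenesis (0.08). A further list held 7 genes of the synthetase complex and of synthetases outside the naming rule (-0.07). Among these 7, the synthetase genes Eprs, Farsa and Farsb were measured at 0.19 ± 0.08, 0.16 ± 0.11 and -0.16 ± 0.06. Eprs was higher and Farsb was lower at an unadjusted p under 0.05. Of 9 mitochondrial translation factors 2 lay above 0, with a median of -0.23 and 5 lower at an unadjusted p under 0.05, where 8.15% of all features were. In Hyp minus WT and Dil minus Hyp none of these lists held a gene that passed.

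Markers of fibroblasts varied between the sets as some of these genes did. Of 8 markers 7 were measured, 5 lay above 0 in Dil minus WT and 0 passed, and their median was -0.10, 0.04, 0.54 and 0.45 in sets 1 to 4. At an unadjusted p under 0.05, 3 were higher, namely Fn1 (0.82 ± 0.26), Col3a1 (0.62 ± 0.17) and Col1a2 (0.56 ± 0.22). Col1a1 (0.22 ± 0.16) and Dcn (0.19 ± 0.15) lay above 0 without reaching that p. Pdgfra (-0.20 ± 0.10) and Lum (-0.05 ± 0.13) lay below 0, so the markers did not move together. Eef1a1 was likewise high in sets 3 and 4 only, and the part of fibroblast RNA in its values was not tested. After removal of the dye term, Eif3a lay at 0.36, 0.60, 0.44 and 0.64 in sets 1 to 4, and Eif4a1 at 0.52, 1.41, 0.59 and 1.56. Sars lay at 0.22, 0.32, 0.21 and 0.44, and Aars at 0.15, 0.23, 0.41 and 0.58. The part of fibroblast RNA in the values of these 4 genes was not tested either. Single markers of other cells also differed at an unadjusted p under 0.05 without passing. Alas2, the only one of 4 erythrocyte markers measured, lay at 0.35 ± 0.12 in Dil minus WT and at 0.59 ± 0.12 in Dil minus Hyp, above 0 in all 4 sets of both. In Dil minus WT the smooth muscle gene Myh11 lay at -0.73 ± 0.18 and the cardiac calcium channel gene Ryr2 at -0.33 ± 0.12. Cnn1, the other smooth muscle marker measured, lay at -0.03 ± 0.08 there. In Dil minus Hyp Myh11 and Cnn1 lay at -0.47 ± 0.17 and -0.06 ± 0.07. The adipocyte gene Adipoq lay at -0.38 ± 0.14 in that comparison, and the adipocyte genes Fabp4 and Plin1 at 0.12 ± 0.13 and 0.00 ± 0.07. The part of these cells in the values of the translation genes was not tested.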

How the data were processed

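Ventricular RNA of 12 mice was measured on 11 cDNA arrays with 2 colours. The labels give the mouse Hyp3 a different cardiac weight index on each of its arrays, and every other mouse a single index. Hyp3 was taken as 1 mouse by its number, which was not checked further. The authors deposited 1 log ratio of the dyes per spot and array. No source used here gives the log base, background correction or normalization, and the deposited values were taken as log2. Spots were named through the platform annotation. Spots of a gene were averaged, and 8 spots that a member shares with another gene were not counted. In the column of WT1 and Hyp1, 40 of 46 groups of 12 positions lay 8 blocks away (24 of 24 blocks matched best there) and were moved back. Features with a value on at least 9 arrays were fitted by generalised least squares with a dye term and mice as random effects (shared variance ratio 0.303), then limma's eBayes (version 3.58.1, R 4.3.3), with Benjamini-Hochberg adjustment over 12097 features. The fit was tested on simulated data. Errors are standard errors with 4 mice a group, and spot depth is unknown. Values called direct are single arrays. Set values use all arrays of a set after the dye term is removed.

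Genes given with all values were those called, and in each comparison the 5 with the smallest p in each direction. Others were chosen by role. The members, the lists and the motifs were chosen with earlier results of these data known. Every array compares mice with the same set number, so set differences cancel in each ratio. The deviations of single mice could not be computed, so whether the numbers pair the mice was not checked beyond this, and the fit with set as a replicate block is given beside the calls.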

Additional observations from a re-analysis of the deposited data

Results flagged for a closer look

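Of 20 groups of 4 direct arrays of the named genes, 3 held an array far from the others, where chance gives about 1 in 20. For Aars in Hyp minus WT the array of set 1, the realigned one, read -0.14, against 0.18 to 0.23 in the other sets. For Eif3a in Dil minus Hyp the array of set 1 read -0.10, against 0.40 to 0.42 in the other sets. For Eif1ax in Dil minus Hyp the array of set 3 read -0.44, against -0.04 to 0.01 in the other sets. The gap to the nearest array was 0.854, 0.955 and 0.879 of the whole range. These direct ratios still hold the dye term, and the same group was in Cy5 in some sets and in Cy3 in others. The fitted dye terms (Cy5 over Cy3) were -0.08 for Aars, -0.00 for Eif3a and 0.19 for Eif1ax. Each flagged array shared its dye order with another array of its group. That array read 0.23 for Aars (set 4), 0.40 for Eif3a (set 3) and -0.04 for Eif1ax (set 1). The part of dye in these 3 flags was not tested.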

How the results depend on the processing

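In Dil minus WT the number of genes called was 4 in the report, 1 (Sars) with arrays scaled to the same spread, 0 with the direct arrays only, 0 with the replicate block, and 0 to 2 when a replicate set was left out. It was 3 or 4 under the other 9 alternatives. Over all features the count was 260 in the report, 159 without the realigned array, 99 with scaled arrays, 7 with the direct arrays only, 6 with the replicate block and 0 to 121 with a set left out. In Hyp minus WT and Dil minus Hyp no gene of the 76 was called under any of the 16 alternatives, although the count over all features in Dil minus Hyp was 20 in the report and 0 to 52 under them. No change of direction was seen in the 30 named changes. Of the values of these named changes under the alternatives, 450 kept their side of the threshold and 28 lost a call, all of them among Eif3a, Eif4a1, Aars and Sars in Dil minus WT, and the cause was not tested. Signal over background was not used here, and the number of arrays limits the precision.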
